A study of Mus musculus with 30 samples.

Results

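The mouse mitochondrial genome encodes 13 proteins, and 9 of these genes were listed for study by name: mt-Nd1, mt-Nd2, mt-Nd4 and mt-Nd5 of complex I, mt-Cytb of complex III, mt-Co1, mt-Co2 and mt-Co3 of complex IV and mt-Atp6 of the ATP synthase. All 9 were found among the 55573 genes of the deposited table of reads per 1000000 reads of a library (CPM). Of the 9, 6 were among the 12016 genes of the deposited count table, which is the table the main tests ran on. Those 6 were mt-Nd1, mt-Nd2, mt-Nd4, mt-Nd5, mt-Cytb and mt-Co1. The values for mt-Co2, mt-Co3 and mt-Atp6 were near 0 and are described first.

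The libraries came from 3T3-L1 cells, a mouse embryonic fibroblast line that can be driven to become adipocytes. Sub-confluent cells had been transfected on day −3 of the differentiation schedule with 50 nM of scramble siRNA or of an siRNA against Kdm5c, the gene of an X-linked histone H3 lysine 4 demethylase. Both kinds of cell had therefore met the same transfection reagent. RNA was taken after 24 h (day −2), 48 h (day −1) and 72 h (day 0), in 5 libraries for each of the 6 groups, 30 in all. The labels do not say whether the 5 libraries of a group were separate cultures, so the p-values rest on library-to-library spread that may be technical.

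Kdm5c itself fell by 83.7% on day −2, fell by 81.1% on day −1 and fell by 74.8% on day 0, with no overlap between the siRNAs on any day. Library totals ran from 25217905 to 33725717 reads, and reads counted for genes of the mitochondrial genome made up 2.08 to 2.53% of them. Of 9 markers of preadipocytes and fibroblasts, 8 were in the count table; the exception, Cd34, reached 1.07 CPM at most. Of 7 markers of mature adipocytes 1, Fabp4, was in the count table, and Adipoq did not pass 0.159 CPM in any library. Of 5 macrophage markers 2 were in the count table, Cd68 and Csf1r, with at most 4.17 and 7.48 CPM, and of 4 endothelial markers 1, Kdr, with at most 1.91 CPM. None of 4 epithelial markers was in the count table, and Epcam had 0 reads in every library.

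Mitochondria keep a small circular genome of their own. Its heavy strand is copied into one long precursor RNA, which is cut at the tRNAs that lie between the genes, so that the mRNAs are made together and their separate levels depend on how each is then matured, protected and degraded. The finished mRNAs of this precursor are short of untranslated sequence, have no introns and carry a poly(A) tail, which in some of them completes the stop codon. The proteins are the hydrophobic cores of complexes I, III and IV and of the ATP synthase, whose other subunits come from nuclear genes.

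All 9 listed genes are on the plus strand of the mitochondrial genome (chromosome M, GRCm38, GENCODE M21): mt-Nd1 (ENSMUSG00000064341) at 2751 to 3707, mt-Nd2 (ENSMUSG00000064345) at 3914 to 4951, mt-Co1 (ENSMUSG00000064351) at 5328 to 6872, mt-Co2 (ENSMUSG00000064354) at 7013 to 7696, mt-Atp6 (ENSMUSG00000064357) at 7927 to 8607, mt-Co3 (ENSMUSG00000064358) at 8607 to 9390, mt-Nd4 (ENSMUSG00000064363) at 10167 to 11544, mt-Nd5 (ENSMUSG00000064367) at 11742 to 13565 and mt-Cytb (ENSMUSG00000064370) at 14145 to 15288. The stop codon is whole in 6 of the 9, and the transcripts of mt-Co3, mt-Cytb and mt-Nd4 end in a single T after the last whole codon. Their last 30 bases are shown beside those of mt-Co1, with the last codon, or the base left over after it, in capitals.
mt-Co1, bases 1516 to 1545: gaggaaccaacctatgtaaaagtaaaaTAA
mt-Co3, bases 755 to 784: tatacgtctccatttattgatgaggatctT
mt-Cytb, bases 1115 to 1144: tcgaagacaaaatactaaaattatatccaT
mt-Nd4, bases 1349 to 1378: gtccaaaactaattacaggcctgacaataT

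The nuclear genome holds annotated pseudogenes that repeat stretches of these genes, some to the letter and others with differences. The transcripts of mt-Co2, mt-Atp6 and mt-Co3 were letter for letter those of 3 neighbouring pseudogenes on the minus strand of chromosome 1, over bases 1 to 681, 1 to 678 and 1 to 783: Gm28661 at chr1:24614885-24615565, Gm10925 at chr1:24613974-24614651 and Gm28437 at chr1:24613189-24613971. The first 30 bases of each pair are identical, so that nothing in them is in capitals.
mt-Co2: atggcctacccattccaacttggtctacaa
Gm28661: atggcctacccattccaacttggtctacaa
mt-Atp6: atgaacgaaaatctatttgcctcattcatt
Gm10925: atgaacgaaaatctatttgcctcattcatt
mt-Co3: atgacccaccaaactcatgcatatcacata
Gm28437: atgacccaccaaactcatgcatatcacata

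The copies of the other members were shorter or less alike. mt-Nd4 had a perfect copy, Gm28439 on chromosome 1, of its first 876 of 1378 bases. The copy of mt-Co1 at full length, Gm13340 on chromosome 2, differed at 37 of 1545 bases, and a second one, Gm29216 on chromosome 1, covered bases 1063 to 1545 with 1 difference. Gm4076 on chromosome 13 covered bases 706 to 1659 of mt-Nd5 at 95.2% identity, Gm13339 on chromosome 2 bases 529 to 1038 of mt-Nd2 at 96.7%, and the nearest copy of mt-Cytb, Gm11410 on chromosome 4, was 92.9% identical. In the first 2 pairs the bases that differ are in capitals, and in mt-Nd4 the bases that Gm28439 still holds are in capitals.
mt-Co1, bases 691 to 720: taccaGcaTctgttctgattctttggGcaC
Gm13340, bases 691 to 720: taccaAcaCctgttctgattctttggAcaT
mt-Nd5, bases 931 to 960: ggcctGataatagtGacGctaggAataaaC
Gm4076, bases 226 to 255: ggcctAataatagtAacActaggGataaaT
mt-Nd4, bases 862 to 891: TACTCCTCAGTTAGCcacatagcacttgtt
Counted from 1 at the first base shown, the copy of mt-Co1 carried G6A, T9C, G27A and C30T, and that of mt-Nd5 carried G6A, G15A, G18A, A24G and C30T.

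The levels of the members are given here beside the part of their sequence that is shared. All of the 50-base words of the mt-Co2 transcript, 99.5% of those of mt-Atp6 and 99.9% of those of mt-Co3 were found without a mismatch in the transcript of another gene. These 3 genes had medians of 0.153, 0.114 and 0.133 CPM over the 30 libraries. In 29 libraries mt-Co2 did not pass 0.334 CPM, and 3 had 0 reads, which allows up to 3 reads or about 0.1 CPM. The exception was Kdm5c siRNA replicate 5 of day −1, with 308 reads and 9.13 CPM. For mt-Atp6 the libraries ran from 0 to 0.317 CPM and for mt-Co3 from 0.0352 to 0.365 CPM, with 0 to 10 and 1 to 11 reads. The shared words made up 62.2% of mt-Nd4, 51.1% of mt-Co1, 8.19% of mt-Nd2 and 7.61% of mt-Nd5, and none of those of mt-Nd1 and mt-Cytb were shared. Those 6 genes had 1209.8 to 8683 CPM in every library.

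The copies held few reads too. Gm28661, Gm10925 and Gm28437 had medians of 0.249, 0.197 and 1.24 CPM. Gm28661, the copy of mt-Co2, reached 6.44 CPM in scramble replicate 1 and 2.84 CPM in Kdm5c siRNA replicate 1 of day 0 and was at most 0.463 CPM in the other 28 libraries. mt-Co2 did not pass 0.334 CPM in either of those 2 libraries. The copy of mt-Co1 at full length had a median of 3.10 CPM. The other mitochondrial mRNAs with near-complete copies on the same part of chromosome 1, mt-Nd3 and mt-Nd4l, were also near 0, with at most 0.0762 and 0.148 CPM. mt-Atp8 did not have shared words in the annotated transcripts, the only sequences searched, and was at 0.183 CPM or less. On chromosome 1, 233 bases lie between Gm10925 and Gm28661. On the mitochondrial genome, 233 bases lie between the copied parts of mt-Co2 and mt-Atp6, where mt-Atp8 starts. Whether the stretch on chromosome 1 holds a copy of mt-Atp8 was not tested. The sources used here do not say how reads matching several places were counted, and the part of shared sequence in these levels was not tested. The levels of mt-Co2, mt-Co3 and mt-Atp6 are tested further only without the low-count filter. Those of mt-Nd4 and mt-Co1, which share words with copies, are uncertain.

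**Figure D1:**
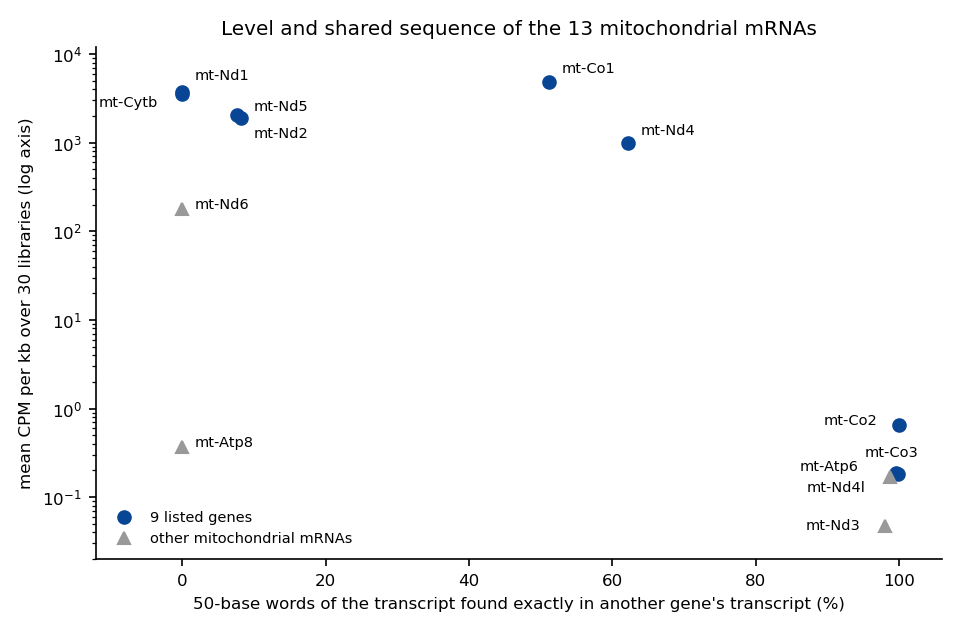
Mean CPM per kb of transcript over 30 libraries (log axis) against the percentage of 50-base words of the transcript that occur exactly in the transcript of another gene, for the 13 mitochondrial mRNAs (circles: the 9 listed genes; triangles: the others). The 5 genes with over 97% shared words and mt-Atp8 lie below 1 CPM per kb, and the other 7 lie at 180.0 or more.

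Compared per kb of transcript, mt-Co1, the catalytic core of cytochrome c oxidase, stood highest and mt-Nd4, a proton-pumping subunit of complex I, lowest among the 6 counted genes. The means over the 30 libraries were 4854 CPM per kb for mt-Co1, 3725 for mt-Nd1, 3527 for mt-Cytb, 2050 for mt-Nd5, 1920 for mt-Nd2 and 982 for mt-Nd4. When only words found in no other gene were counted as length, mt-Co1 was again first with 10260 CPM per 1000 such words, but mt-Nd4 with 2696 passed mt-Nd5 with 2280 and mt-Nd2 with 2195, so that the last place of mt-Nd4 depended on this choice.

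In this order, 2 pairs of neighbours changed places during the 3 days. mt-Nd1, which encodes a membrane arm subunit of complex I, was above mt-Cytb, the central subunit of complex III, in all 20 libraries of days −2 and −1 and below it in all 10 of day 0. In scramble, mt-Nd1 went from 4101 ± 104 CPM per kb (SD, n = 5) on day −2 to 3424 ± 67.2 on day 0, while mt-Cytb was at 3538 ± 90.2 and 3741 ± 111. The other pair was mt-Nd5 and mt-Nd2, subunits of the same complex. mt-Nd5 was below mt-Nd2 in all 10 libraries of day −2 and above it in all 10 of day 0, and on day −1 the order differed by siRNA: mt-Nd5 was below in 5 of 5 scramble libraries and above in 5 of 5 Kdm5c siRNA libraries. The day −1 means were 1935 ± 78.7 for mt-Nd5 and 1998 ± 86.1 for mt-Nd2 in scramble, against 1960 ± 54.1 and 1789 ± 60.0 with Kdm5c siRNA. Both orders were the same in every library when counted over unshared words. The 2 means of the scramble libraries on day −1 differed by less than their SD, although the order was the same within each library.

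On day −2, 24 h after transfection, none of the 6 counted mRNAs passed the test between Kdm5c siRNA and scramble (edgeR quasi-likelihood, Benjamini-Hochberg adjusted p under 0.05 over 12016 genes), against 23.2% of all genes. All 6 overlapped between the siRNAs, where 7.37% of all genes lay higher and 8.75% lower without overlap. Unadjusted, 0 of the 6 had a p under 0.05, and DESeq2 and limma called 0 as well. The log2 fold changes ran from −0.030 for mt-Nd2 to 0.039 for mt-Nd5, and the widest 95% interval, that of mt-Nd5, reached from −0.029 to 0.11. Their median was −0.006, beside 0.0004 for all genes.

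On day −1, 4 of the 6 were called lower with Kdm5c siRNA and none higher, against 16.8% of all genes called lower and 18.8% higher. The 6 genes went up and down together between libraries of a group (Pearson r from 0.724 to 0.946). Their calls are therefore not independent of each other. mt-Nd2 moved most. Its scramble libraries were at 1962, 2039, 2049.9, 2122 and 2198 CPM and its Kdm5c siRNA libraries at 1774, 1824, 1851, 1905 and 1929 CPM. The highest library with Kdm5c siRNA was below the lowest with scramble, and mt-Nd2 was the 1 member of 6 without overlap, where 11% of all genes lay lower without overlap and 22.3% in either direction. Its log2 fold change was −0.16 (SE 0.030, edgeR adjusted p = 9.41e-05) after TMM scaling of the libraries, so that mt-Nd2 fell by 10.4%.

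mt-Nd1 was at 3598, 3617, 3664, 3805 and 3994 CPM with scramble and at 3303, 3380.4, 3441, 3547 and 3636 CPM with Kdm5c siRNA on day −1. The highest library with Kdm5c siRNA was above the 2 lowest with scramble, and the log2 fold change was −0.11 (SE 0.031, edgeR adjusted p = 0.00597). mt-Cytb (−0.091, adjusted p = 0.0309) and mt-Co1 (−0.072, adjusted p = 0.0291) were also called in the edgeR test. Both calls were lost, leaving 2 of 6, without scramble replicate 1 or 5, without Kdm5c siRNA replicate 1, 3 or 5, and without scramble replicates 1, 2 and 3 together. mt-Nd4 (−0.054, 95% interval −0.12 to 0.0085) and mt-Nd5 (0.021, interval −0.047 to 0.089) did not pass the test. On the same day Kdr, the endothelial marker, was called higher with Kdm5c siRNA (0.62, edgeR adjusted p = 0.0166), with all 4 markers summing to 0.982 to 1.47 CPM in scramble and 1.61 to 2.02 CPM with Kdm5c siRNA; its part in the changes of the members was not tested.

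On day 0, 5 of the 6 were called lower with Kdm5c siRNA and none higher, against 16.2% of all genes called lower and 19.3% higher. These calls, too, are not independent of each other. mt-Co1 was at 7947, 8264, 8367, 8383 and 8683 CPM with scramble and at 7275, 7518, 7629.8, 7753 and 7821 CPM with Kdm5c siRNA. Each Kdm5c siRNA library was below each scramble library, and the log2 fold change was −0.13 (SE 0.026, edgeR adjusted p = 0.000171); mt-Co1 fell by 8.58%. mt-Nd2 was at 1892, 1978, 1997, 2016 and 2022 CPM with scramble and at 1749, 1795, 1801, 1809.8 and 1825 CPM with Kdm5c siRNA, again without overlap, with a log2 fold change of −0.14 (SE 0.030, edgeR adjusted p = 0.000486). mt-Nd2 and mt-Co1 are subunits of different complexes.

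mt-Nd4 was at 1425, 1466, 1475, 1477 and 1487 CPM with scramble and at 1329, 1343, 1383, 1395 and 1407 CPM with Kdm5c siRNA on day 0, without overlap (log2 fold change −0.093, SE 0.031, edgeR adjusted p = 0.0172). mt-Cytb, with −0.093 (edgeR adjusted p = 0.0266), overlapped between the groups, and mt-Nd1, with −0.079 (edgeR adjusted p = 0.0449), did not. In all, 4 of 6 were lower without overlap, against 10.7% of all genes lower and 21.7% in either direction. mt-Nd5 did not pass the test (−0.039, 95% interval −0.11 to 0.029): its scramble libraries were at 4020.2, 4245, 4308, 4422 and 4431 CPM and its Kdm5c siRNA libraries, at 4078, 4147, 4188, 4204 and 4206 CPM, lay within that range.

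The calls of mt-Nd2 and mt-Co1 on day 0 did not depend on any 1 library, while the others did. Without Kdm5c siRNA replicate 4 the calls of mt-Nd1, mt-Nd4 and mt-Cytb were lost, which left 2 of 6. Without scramble replicate 2, 3 or 5, or Kdm5c siRNA replicate 1, those of mt-Nd1 and mt-Cytb were lost, which left 3. Without scramble replicate 4, or Kdm5c siRNA replicate 3 or 5, mt-Nd1 alone lost its call. It lost it also with the replicate number as a block (adjusted p = 0.0585), with upper-quartile scaling (adjusted p = 0.053) and with mitochondrial reads left out of the scaling (adjusted p = 0.0536). Markers of other cell types were also called higher with Kdm5c siRNA on day 0: Cd68 (0.91, edgeR adjusted p = 1.28e-06) and Csf1r (0.52, adjusted p = 0.0415) of macrophages and Fabp4 (0.30, adjusted p = 0.00151) of adipocytes. The 5 macrophage markers summed to 2.41 to 3.31 CPM in scramble and 3.68 to 5.53 CPM with Kdm5c siRNA, and the 7 adipocyte markers to 21.97 to 28.8 and 28.7 to 35.5 CPM. Adgre1, a defining macrophage marker, had 0 reads in every library, Ptprc and Itgam did not pass 0.099 and 0.066 CPM, and of the adipocyte markers Cfd had 0 reads throughout. Of the 8 preadipocyte and fibroblast markers tested, 3, 2 and 3 were called higher with Kdm5c siRNA on days −2, −1 and 0. Called lower were 1, 3 and 3. Of all genes, 11.3, 18.8 and 19.3% were called higher on these days and 11.9, 16.8 and 16.2% lower. On day −1 Ly6a was called higher (0.54), and Pdgfra (−0.24), Dlk1 (−0.18) and Pdgfrb (−0.094) lower. The part of these markers in the changes of the members was not tested. In bulk libraries fewer cells of a type and less RNA per cell cannot be told apart.

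**Figure D2:**
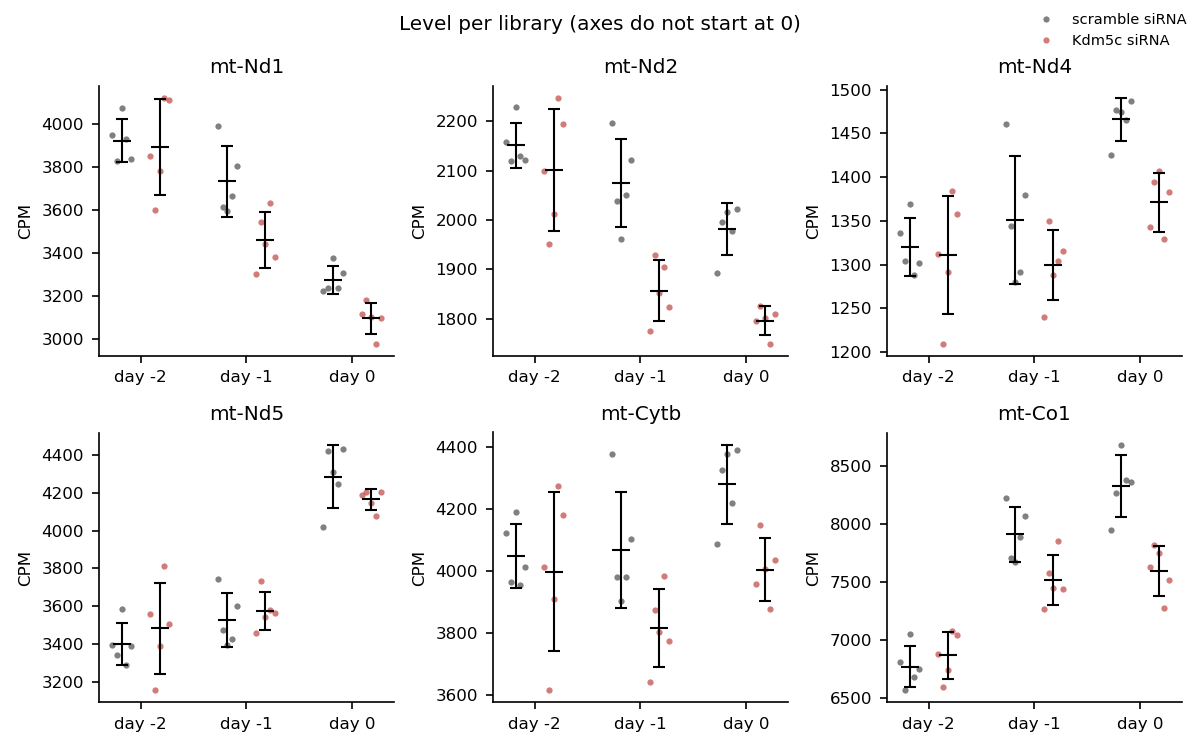
CPM of the 6 counted genes in each library (points), with mean and SD of 5 libraries (bars), by day and siRNA; the axes do not start at 0. mt-Nd2 with Kdm5c siRNA lies below scramble without overlap on days −1 and 0, as do mt-Nd1, mt-Co1 and mt-Nd4 on day 0, and mt-Nd5 overlaps on each day.

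Over the 3 days in scramble cells the members went opposite ways. From day −2 to day 0, 3 of the 6 rose and 2 fell in the edgeR test, against 44.6% and 43.6% of all genes; as 88.2% of all genes were called, a call here is near the background. mt-Nd5 was at 3292, 3344, 3391, 3393 and 3585 CPM on day −2 and at 4020.2 to 4431 CPM on day 0, which is 0.30 on the log2 scale (SE 0.033, edgeR adjusted p = 5.99e-10). mt-Co1 was at 6569, 6679, 6752, 6814 and 7050.1 CPM on day −2 and rose by 0.26 (SE 0.026, edgeR adjusted p = 2.98e-11). mt-Nd4 rose by 0.11 (SE 0.031, edgeR adjusted p = 0.00108), or by 0.17 with upper-quartile scaling and 0.070 without the low-count filter. mt-Nd1 went from 3831, 3838, 3930.0, 3949 and 4074 CPM on day −2 to 3222, 3239, 3239, 3306 and 3376 CPM on day 0 and fell by 0.30 on the log2 scale (SE 0.031, edgeR adjusted p = 6.58e-11). mt-Nd2 fell by 0.16 (SE 0.030, edgeR adjusted p = 1.37e-05), or by 0.099 with upper-quartile scaling. None of these 5 overlapped between the 2 days, beside 80.2% of all genes (42.7% higher, 37.6% lower). mt-Cytb was not called (0.042, 95% interval −0.025 to 0.11), but it was called higher with upper-quartile scaling (0.10), library totals alone (0.080) and limma (0.080). The limma fit used library totals without TMM scaling, so it shares its scaling with library totals alone.

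The steps differed by member. From day −2 to day −1, mt-Co1 rose by 0.15 (edgeR adjusted p = 2.98e-06), while mt-Nd1 fell by 0.14 (adjusted p = 7.97e-05) and mt-Nd2 by 0.13 (adjusted p = 0.000339), where 78.9% of all genes were called (39.5% higher, 39.4% lower). mt-Co1 was the 1 member without overlap, beside 66.3% of all genes (39.1% higher, 27.3% lower), and mt-Nd4, mt-Nd5 and mt-Cytb did not pass the test. The fall of mt-Nd2 was not called with upper-quartile scaling (−0.065, adjusted p = 0.0577) or with library totals alone (−0.053, adjusted p = 0.109), and that of mt-Nd1 was −0.083 and −0.071 there. Without scramble replicate 1 of day −1, mt-Nd4 and mt-Cytb were called lower too, 4 in all. From day −1 to day 0, mt-Nd5 rose by 0.31 (SE 0.033, edgeR adjusted p = 2.97e-10), the largest step of any member. mt-Nd4, mt-Co1 and mt-Cytb rose by 0.15, 0.11 and 0.11, mt-Nd1 fell by 0.15, and mt-Nd2 was not called (−0.032, interval −0.094 to 0.030), where 74.7% of all genes were called (36.8% higher, 37.9% lower). mt-Nd5 and mt-Nd1 did not overlap, beside 60.8% of all genes (26.6% higher, 34.1% lower).

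With Kdm5c siRNA the same time span, day −2 to day 0, gave 2 members higher and 2 lower, where 87.4% of all genes were called (43.8% higher, 43.6% lower). These 4 did not overlap, beside 78.1% of all genes (41.4% higher, 36.7% lower). mt-Nd5 rose by 0.22 and mt-Co1 by 0.11, and mt-Nd1 and mt-Nd2 fell by 0.37 and 0.27 on the log2 scale (edgeR adjusted p from 3.19e-13 to 0.000346). The value for mt-Co1 was 0.17 with upper-quartile scaling and 0.055 without the low-count filter. mt-Nd4 (0.025) and mt-Cytb (−0.038) did not pass the test, but mt-Nd4 was called higher with upper-quartile scaling (0.086), library totals alone (0.065) and limma (0.066), and mt-Cytb lower without the low-count filter (−0.089). Without Kdm5c siRNA replicate 2 of day −2, mt-Cytb was called lower as well, 3 in all. mt-Nd5 and mt-Co1 were called higher, and mt-Nd1 and mt-Nd2 lower, with both siRNAs.

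The difference between the siRNA effects of day 0 and day −2 was tested directly, and 1 of the 6 passed, against 16.1% of all genes, 6.18% lower and 9.95% higher. This was mt-Co1, with a difference of −0.15 (SE 0.037, edgeR adjusted p = 0.0033): its siRNA effect was 0.025 on day −2 and −0.13 on day 0. The other 5 differences were also below 0, from −0.072 for mt-Nd1 to −0.11 for mt-Nd2 (adjusted p from 0.0823 to 0.292), and did not pass. mt-Nd2 passed, making 2, without Kdm5c siRNA replicate 2 or 3 of day −2 or scramble replicate 1 of day 0. The siRNA and time comparisons share scramble libraries, so they are not independent of each other.

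**Figure D3:**
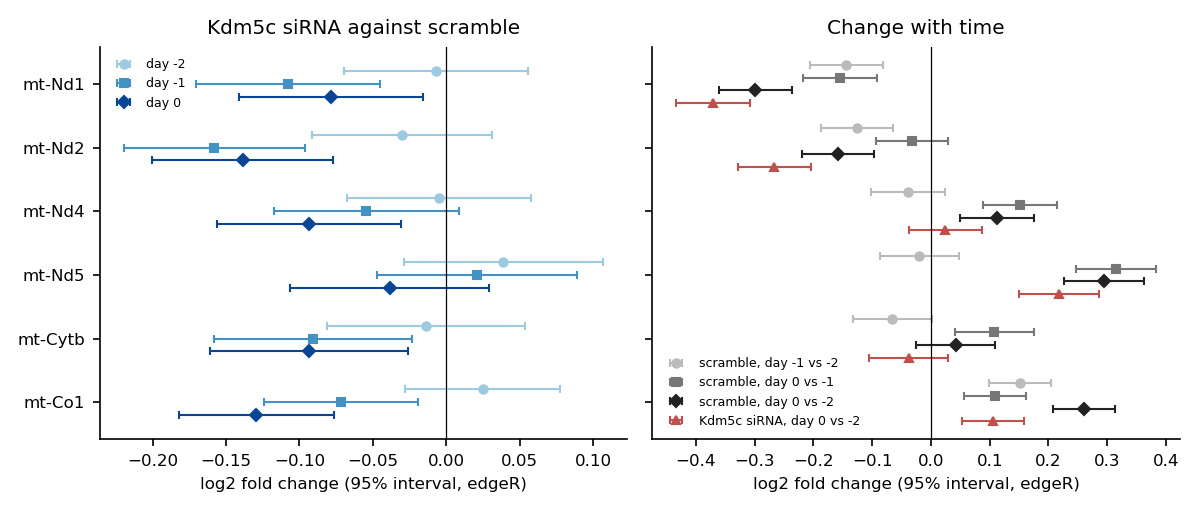
Log2 fold changes of the 6 counted genes with 95% intervals (edgeR), for Kdm5c siRNA against scramble on each day (left) and for the changes between days (right; squares, circles and diamonds scramble, triangles Kdm5c siRNA). The intervals of all 6 genes include 0 on day −2 at left; at right mt-Nd1 lies below 0 in all 4 comparisons, and mt-Nd5 lies above 0 in 3 of the 4.

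The shares of the 6 counted genes in their summed CPM do not depend on how libraries are scaled. They are given without a test, since they are scores over the members. They leave out the other mitochondrial mRNAs and include mt-Co1 and mt-Nd4, whose levels are uncertain. Because the shares of a library add up to the whole, a rise in any share lowers the sum of the others. Of the summed CPM of the 6 counted genes, mt-Nd2 made up 9.96 ± 0.0618% (SD, n = 5) in scramble and 9.70 ± 0.118% with Kdm5c siRNA on day −2, 9.15 ± 0.0871% and 8.62 ± 0.0897% on day −1, and 8.39 ± 0.0419% and 8.15 ± 0.0597% on day 0. The scramble and Kdm5c siRNA libraries did not overlap on any of the 3 days, including day −2, when the level of mt-Nd2 was not called. Its mean share was lower on each later day with both siRNAs.

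The share of mt-Nd5, which is not independent of that of mt-Nd2, had the opposite order. It was 15.7 ± 0.192% with scramble and 16.1 ± 0.429% with Kdm5c siRNA on day −2, where the libraries overlapped. On day −1 it was 15.6 ± 0.113% and 16.6 ± 0.327%, without overlap, and on day 0 18.1 ± 0.391% and 18.9 ± 0.242%, where the highest scramble library had 18.64% and the lowest with Kdm5c siRNA 18.63%. The ratio of mt-Nd5 to mt-Nd2 in a library, chosen after the levels were seen, had higher means on each later day and with Kdm5c siRNA: 1.58 ± 0.0244 and 1.66 ± 0.0471 on day −2, with overlap, 1.70 ± 0.0206 and 1.93 ± 0.0303 on day −1, and 2.16 ± 0.0385 and 2.32 ± 0.0146 on day 0, without overlap on the last 2 days.

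The share of mt-Nd1 was lower on each later day. It went from 18.2 ± 0.200% to 16.5 ± 0.118% and 13.9 ± 0.238% in scramble, and from 17.98 ± 0.237% to 16.1 ± 0.174% and 14.1 ± 0.0752% with Kdm5c siRNA. mt-Co1 went from 31.3 ± 0.161% on day −2 to 34.9 ± 0.420% on day −1 and 35.3 ± 0.451% on day 0 in scramble; with Kdm5c siRNA it had 31.7 ± 0.686%, 34.9 ± 0.323% and 34.5 ± 0.339%. mt-Cytb stayed between 17.7 and 18.7% in the group means and mt-Nd4 between 5.96 and 6.22%. Within complex I, mt-Nd5 per mt-Nd1 was 0.867 ± 0.0187 on day −2 and 1.31 ± 0.0474 on day 0 in scramble, and 0.895 ± 0.0312 and 1.35 ± 0.0182 with Kdm5c siRNA.

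**Figure D4:**
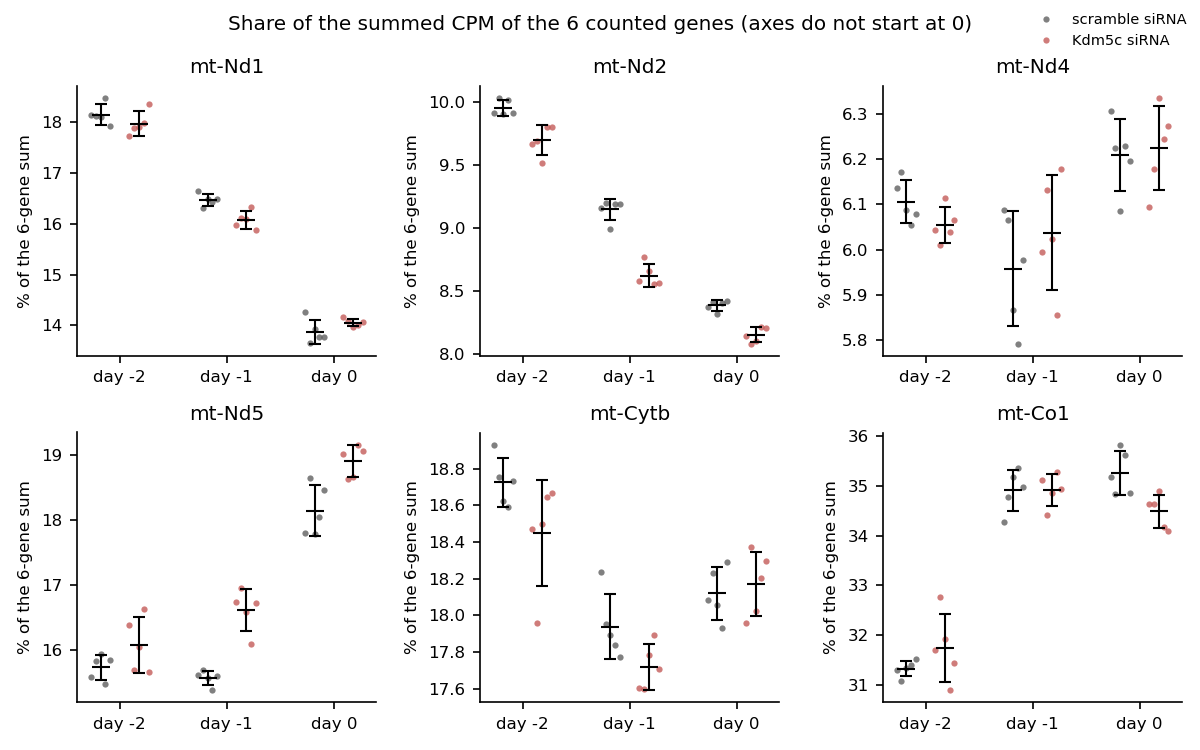
Share of each gene in the summed CPM of the 6 counted genes in each library (points), with mean and SD of 5 libraries (bars), by day and siRNA; the axes do not start at 0. The share of mt-Nd2 is lower with Kdm5c siRNA on all 3 days and that of mt-Nd5 is higher on day −1, without overlap, while the mean share of mt-Nd1 is 13.9 and 14.1% on day 0.

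Other products of the mitochondrial genome were also counted. mt-Nd6, the subunit of complex I coded on the other strand, had 180.0 CPM per kb. It was called higher with Kdm5c siRNA on day −2 (log2 fold change 0.13, SE 0.041, edgeR adjusted p = 0.0164) and was not called on day −1 (0.038) or day 0 (−0.056), and the difference between the effects of day 0 and day −2 passed the test (−0.19, adjusted p = 0.0222). Its gene overlaps the end of mt-Nd5 by 14 bases; the libraries were strand-specific per the labels, but the sources used here do not say whether reads were counted by strand. The rRNAs of the small and large mitochondrial ribosomal subunit, mt-Rnr1 and mt-Rnr2, rose by 0.52 and 0.52 from day −1 to day 0 in scramble (edgeR adjusted p = 7e-08 and 1.87e-06). Of all genes, 74.7% were called in that comparison, 36.8% higher. Neither rRNA was called between the siRNAs on any day. The libraries were made for mRNA per the labels, and how far these reads follow the rRNA levels was not tested.

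Between libraries of the same group the members went up and down together. With the mean of each group removed, the 15 pairs of members had Pearson r from 0.724 to 0.946, with a median of 0.882, over 30 libraries. The lowest was mt-Co1 with mt-Nd5 and the highest mt-Cytb with mt-Nd2. mt-Nd6 had r of 0.436 to 0.498 with the members, mt-Rnr1 0.393 to 0.516 and mt-Rnr2 0.281 to 0.448, while the 2 rRNAs had 0.961 with each other. These values share the library totals, so they describe the libraries and are given without a p. Of 10272 nuclear genes compared with the summed members in the same way, those most like it were Prkaca with 0.760, Gm2000 with 0.746, Znhit1 with 0.723, Egr1 with 0.711 and Bad with 0.691, and 90% of genes lay below 0.292.

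The nuclear genes that serve this genome were read from lists written for this purpose. Of 9 measured genes for its transcription, 2 were called higher with Kdm5c siRNA on day −2 and none lower, where 11.3% of all genes were called higher and 11.9% lower; these were Mterf2 (0.28) and Mterf4 (0.17), of the mitochondrial termination factor family. On day −1 the 2 called higher were Tfb2m (0.20, edgeR adjusted p = 0.00258), an initiation factor of the mitochondrial RNA polymerase, and Tefm (0.22, adjusted p = 0.0215), its elongation factor, where 18.8% of all genes were called higher. On day 0 none of the 9 was called. The list's medians were 0.024, 0.045 and −0.036, beside 0.0004, 0.0024 and 0.0034 for all genes.

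Of 23 measured genes of mitochondrial RNA processing, tailing and stability, 1 was called higher and 1 lower on day −2, 7 higher and 2 lower on day −1, and 1 higher and 2 lower on day 0. Of all genes, 11.3% were higher and 11.9% lower on day −2, 18.8% and 16.8% on day −1, and 19.3% and 16.2% on day 0. Rexo2, an exonuclease for very short RNAs, was higher on days −1 and 0 (0.13 on each, edgeR adjusted p = 7.63e-05 and 0.000139). Ptcd1, a pentatricopeptide repeat protein, was lower on the same days (−0.11 and −0.14). Of 8 measured regulators of mitochondrial biogenesis, 1 was called higher on each day and 2, 3 and 2 lower. Esrra, the nuclear receptor ERRα, was lower with Kdm5c siRNA on all 3 days, by log2 fold changes of −0.31, −0.41 and −0.36 (edgeR adjusted p from 2.11e-11 to 7.81e-09). Ppargc1b, its coactivator, was lower too, by −0.39, −0.91 and −0.50 (adjusted p from 2.34e-06 to 0.0207), whereas Ppargc1a was called higher on day −2 (0.25, adjusted p = 0.0256). For replication and maintenance of the mitochondrial genome, 1 of 16 was lower on day −2, Polg (−0.16). On day −1, 1 was higher, Exog (0.25), and 2 were lower, Dguok (−0.11) and Top1mt (−0.12). On day 0, 5 were lower, among them Lonp1 (−0.24) and Top1mt (−0.26), and none higher. Of 16 genes of mitochondrial translation, 0, 3 and 1 were higher and 0, 1 and 1 lower on the 3 days, and of 22 assembly factors 0, 4 and 1 were higher and 1, 3 and 4 lower. Of 21 markers of mitochondrial mass, 0, 1 and 1 were higher and 5, 5 and 4 lower, and of 8 mitophagy genes 1, 2 and 0 were higher and 1, 1 and 3 lower.

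The nuclear subunits of the same complexes are to be read beside 11.9, 16.8 and 16.2% of all genes called lower with Kdm5c siRNA on days −2, −1 and 0, and 11.3, 18.8 and 19.3% called higher. For complex I, 2, 4 and 5 of 36 were lower on days −2, −1 and 0 and 1 was higher on each. For complex III it was 1, 3 and 1 of 9 lower, for complex IV 3, 5 and 2 of 12, and for the ATP synthase 5, 7 and 4 of 15, with none higher in these 3 lists. The list medians on the 3 days were −0.036, −0.024 and −0.016 for complex I, −0.050, −0.056 and −0.0032 for complex III, −0.061, −0.074 and −0.054 for complex IV and −0.052, −0.072 and −0.030 for the ATP synthase. The 2 genes of the complex IV list called on all 3 days were Cox7a2l, which joins complexes III and IV (−0.49, −0.53 and −0.40), and Cox8a (−0.11, −0.18 and −0.22).

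From day −2 to day 0 in scramble, 9 of 9 nuclear subunits of complex III were called lower, 11 of 12 of complex IV, 11 of 15 of the ATP synthase and 23 of 36 of complex I, where 43.6% of all genes were called lower and 44.6% higher. Called higher were 0, 1, 1 and 7 of them. The medians were −0.43, −0.29, −0.32 and −0.16, beside 0.0037 for all genes. The mitochondrial partners did not share one direction, since mt-Co1 rose, mt-Cytb was not called and the complex I members were split. The 9 genes of mitochondrial transcription were split, with 4 called higher and 5 lower and a median of −0.11. Tfam (−0.44), which packs the genome, Polrmt (−0.36), its RNA polymerase, and Tfb2m (−0.53) fell, and Mterf2 rose (0.81). Of 23 genes of RNA processing and stability 18 fell and 4 rose, with Elac2, the nuclease that cuts at the 3′ end of the tRNAs, at −1.30 (edgeR adjusted p = 1.45e-27) and Grsf1, a protein of the RNA granules, at −0.67. Of 21 markers of mitochondrial mass, 17 fell and 1 rose (median −0.64), among them the chaperonin subunit Hspd1 at −1.46. Of 8 mitophagy genes, 6 rose and 1 fell (median 0.86), with Pink1, a kinase that marks damaged mitochondria, at 1.98. The 9 preadipocyte and fibroblast markers summed to 20073 to 20669 CPM on day −2 and 39758 to 42388 CPM on day 0 in scramble, and 8 of the 8 tested were called higher. Fabp4 (1.17) and Cd68 (0.36) also rose, and Csf1r fell by 2.26 on the log2 scale. The part of these shifts in the time course of the members was not tested.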

How the data were processed

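Per the labels' protocols, total RNA of 3T3-L1 cells was made into strand-specific mRNA libraries. GRCm38, STAR 2.7.2a and edgeR 3.26.8 are named by the submitters' processing notes without their roles. For the read counter, the annotation and reads with several matches nothing is stated in the sources used here. CPM values deposited by the authors cover 55573 genes and are whole reads divided by the library total: 100.0% of the nonzero values were whole numbers of reads to within 0.05. The second deposited table, named as normalized counts, held raw counts of 12016 genes, those with at least 1 CPM in 20 or more libraries, and 100.0% of its values equalled the recovered reads.

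The members and lists were chosen with earlier results of these data known. Symbols, coordinates and sequences were taken from GENCODE M21 (GRCm38; 12010 of 12016 identifiers found); sequences were compared with blastn 2.17.0 (alignments of at least 100 bases) and by exact words of 50 bases. A quasi-likelihood model (edgeR 4.0.16, R 4.3.3) was fitted to all 12016 genes of the 30 libraries with 6 group means, TMM scaling and full library totals as sizes, leaving 24 residual degrees of freedom. Tests were two-sided, p-values were adjusted by Benjamini-Hochberg within a contrast, genes were called under 0.05, and SE and 95% intervals are those of the log2 fold change. TMM factors ran from 0.969 to 0.977 on day −2, from 1.02 to 1.03 on day −1 and from 0.995 to 1.01 on day 0. Fold changes, above all those between days, can therefore differ from ratios of CPM. Overlap between groups was read from CPM without TMM scaling. The fit was tested on simulated data. Shares were planned over all 9 genes and are given over the 6 counted ones.

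Named genes were the 9 members, Kdm5c, the other mitochondrial features, at most 4 called genes per list and comparison with the smallest adjusted p, and the 5 nuclear genes most like the summed members (log2(CPM + 0.5), mean of at least 5 CPM). The 17 lists held 232 symbols, of which 231 were matched and 207 were in the count table. Alternatives were DESeq2 1.42.0, limma 3.58.1 with pseudocounts of 0.1, 0.5 and 2, other scalings and filters, a replicate block, fewer libraries and each library left out in turn. The limma fits used log2 CPM from library totals without TMM scaling, so they are not a scaling separate from library totals alone. Where a gene had 0 reads, up to 3 are allowed for, which is 0.089 to 0.119 CPM; this covers counting error only.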

Additional observations from a re-analysis of the deposited data

Results flagged for a closer look

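Among 90 groups of 5 libraries looked at, a level and a share per member, 4 had 1 library far from the other 4, where chance gives about 1 in 20. The level of mt-Co2 was 9.13 CPM in Kdm5c siRNA replicate 5 of day −1, where the other 4 had 0.0397 to 0.258 CPM. The 308 reads of that library were not matched by mt-Co3 or mt-Atp6, which had 0.237 and 0.297 CPM there. In scramble replicate 2 of day −2, mt-Co2 was at 0 CPM and the other 4 at 0.0985 to 0.132 CPM; that is at most 4 reads against none. The share of mt-Cytb in the 6 counted genes was 17.96% in Kdm5c siRNA replicate 2 of day −2, below the other 4 of that group, and that of mt-Nd2 was 8.995% in scramble replicate 3 of day −1, below the other 4.

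The siRNA effect on mt-Co1 differed between day 0 and day −2 by −0.15 on the log2 scale in the test of the difference (edgeR adjusted p = 0.0033). It was 1 of 6 members to pass, near the 16.1% of all genes that passed, and its level is uncertain because of shared sequence.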

How the results depend on the processing

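Of 600 member log2 fold changes under the alternatives that keep or drop several libraries, genes or scalings at once, 551 kept their direction and side of the threshold, 10 lost a call, 18 gained one and 21 changed sign; with each library left out in turn it was 503, 24, 6 and 7 of 540. The 600 include limma at each pseudocount, which repeats the scaling by library totals. Every sign change was in a value that was not called.

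With Kdm5c siRNA on day −1, the members called lower numbered 2 without scramble replicates 1 to 3 together and 2 to 4 with each library left out in turn, and on day 0 they numbered 2 to 5. Without the low-count filter 1 member was called higher on day −1. This was mt-Co2, at 4.00 (adjusted p = 1.53e-39), and without Kdm5c siRNA replicate 5, an alternative added after the data were seen, it was 0.37 (adjusted p = 0.827).

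For scramble from day −2 to day −1, the number called lower was 1 with upper-quartile scaling, with library totals alone and with limma at each pseudocount, 5 without the low-count filter, and 2 to 4 with each library left out. Scaling moved the uncalled members across 0 here: mt-Nd4 was 0.023 with upper-quartile scaling, 0.034 with library totals and 0.033 with limma, mt-Nd5 0.042, 0.053 and 0.053, and mt-Cytb 0.0071 with library totals and 0.0063 with limma. From day −1 to day 0, 2 were called lower with library totals alone. From day −2 to day 0, mt-Cytb was −0.0011 in scramble without the low-count filter; with Kdm5c siRNA it was 0.023 with upper-quartile scaling, 0.0022 with library totals and 0.0043 with limma, and mt-Nd4 was −0.026 without the low-count filter and, with 1 library left out, from −0.0015 to 0.044. The number with a lower difference of siRNA effects was 3 without the low-count filter and 1 to 2 with each library left out. The cause of these changes was not tested.

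On day −2, leaving out 1 library gave values from −0.027 to 0.019 for mt-Nd1, −0.024 to 0.021 for mt-Nd4 and −0.038 to 0.019 for mt-Cytb. Per 1000000 reads outside the mitochondrial genome, the 9 genes summed to 22554.7 on day 0 with Kdm5c siRNA, against 22032 CPM, the 1 group of 6 that moved by more than its SD. That SD, 471, was the smallest of the 6, and every group was higher on this scale. Scramble on day 0 went from 23618 to 24217, within its SD of 632.

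Same-numbered libraries of the 2 siRNAs did not deviate together: 5 of 15 correlations were over 0.1, from −0.249 to 0.33, so the numbers were not taken as pairs. With the replicate block, mt-Nd1 on day 0 was −0.078 (adjusted p = 0.0585), and no other call among the 6 members changed.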
